A study of Mus musculus with 10 samples.

Results

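Cells take up and exchange amino acids through families of membrane transporters, and 8 genes of the families SLC7, SLC3 and SLC38 were followed here in primary mouse hepatocytes. They are Slc7a1, Slc7a2, Slc7a5, Slc3a2, Slc38a1, Slc38a2, Slc38a3 and Slc38a4, which make up 8 of the 16401 genes measured on the arrays. They were named by symbol, and each was read from a probe set that the array annotation assigns to a single gene. Where a gene had several such probe sets, the one with the highest mean over the 10 libraries was kept. Of the 8, only Slc38a1 had a further probe set, and all 8 passed the filter on low values that left 11480 genes to be tested.

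The hepatocytes came from male C57BL6/J mice, 10 weeks old, and every culture was infected with adenovirus at 2 to 4 pfu/cell. The virus encoded 1 of 3 short hairpin RNAs, namely shWDR5 (directed at Wdr5), shKAT2B (directed at Kat2b) or the non-specific control shNS. WDR5 is a scaffold subunit of histone H3 lysine methyltransferase complexes and KAT2B is a histone acetyltransferase. After 72 hours the cells received 100 nM glucagon or phosphate-buffered saline (PBS) for 90 minutes. Glucagon is released during fasting and acts on hepatocytes through cyclic AMP. Glucagon-treated cells of each arm and PBS-treated shNS cells had 2 libraries each (A and B), and the groups shWDR5 PBS and shKAT2B PBS had 1 library each. Every library pooled RNA of 3 dishes, the labels list 1 hairpin per target, and no untransduced culture was analysed here. Nothing in the labels ties the letters to separate animals, so p-values here reflect only how much these libraries vary, which may be technical.

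The liver draws amino acids from the blood for gluconeogenesis, urea synthesis and protein synthesis, and uptake across the sinusoidal membrane is a controlled step of that use. Slc7a1 and Slc7a2 encode the cationic transporters CAT1 and CAT2, which carry arginine, lysine and ornithine. CAT2 is the form known from liver, where CAT1 is classically described as low. Slc7a5 encodes LAT1, which exchanges large neutral amino acids such as leucine, and Slc3a2 encodes the heavy chain 4F2hc (CD98) that brings LAT1 and related light chains to the plasma membrane. Slc38a1, Slc38a2 and Slc38a4 encode the sodium-coupled system A carriers SNAT1, SNAT2 and SNAT4 for alanine and other small neutral amino acids. Slc38a2 is a known target of the amino acid starvation response, and SNAT4 is typical of liver. Slc38a3 encodes the system N carrier SNAT3, which moves glutamine, histidine and asparagine in hepatocytes.

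The targets were lower in their arms, as Kat2b fell by 2.70 ± 0.09 with shKAT2B and Wdr5 fell by 1.74 ± 0.07 with shWDR5 (log2 fold change ± SE, limma adjusted p = 2.76e-06 and 1.34e-05). A set of 4 libraries (the A libraries of the 3 glucagon groups and of shNS PBS) stood apart from the other 6, which hold 1 library of every group. This split was read from the signs of the first component of what arm and treatment left unexplained. That component carried 78 percent of the variance left. Summed intensity of 12 hepatocyte markers was 54209 to 72004 over the 10 libraries. No intensity on these arrays is 0, and brightness is not comparable between probe sets, so this is no measure of purity. The sum of 15 Kupffer cell and leukocyte markers was 8066 to 10233 in the set of 4 and 12440 to 17506 in the set of 6, and that of 13 endothelial markers 4324 to 4870 and 5624 to 7453. The sum of 11 stellate cell and fibroblast markers ran the other way, at 9653 to 9819 and 7053 to 7410. Where values with this library set as a term are given, they come from a fit with less spread by construction, because the set was read from these same libraries.

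Levels below are log2(intensity + 1), a scale on which a difference of 1 is a doubling, and levels of different genes are not compared because probe sets differ in brightness. Slc7a2 had the widest range of the 8 genes. It stood at 9.55 and 9.55 in shNS PBS, 9.93 in shKAT2B PBS and 10.53 in shWDR5 PBS. Under glucagon it stood at 11.39 and 11.49 in shKAT2B, 11.64 and 11.66 in shNS and 11.93 and 11.93 in shWDR5. Every glucagon library lay above every PBS library, and no 2 neighbouring groups in this order overlapped. The other cationic transporter gene, Slc7a1, stayed between 8.89 and 9.39 in the 10 libraries, and its groups overlapped. Its lowest value was shWDR5 glucagon B and its highest shNS PBS A.

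Slc7a5 spanned 10.96 to 11.33, with both extremes in glucagon libraries, shKAT2B glucagon A and shNS glucagon B. Its partner Slc3a2 spanned 13.02 to 13.39, with the lowest value in shKAT2B PBS and the highest in shWDR5 glucagon A. Neither gene of this LAT1 heterodimer separated the treatments.

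Among the system A genes, Slc38a4 stood at 12.50 and 12.45 in shNS PBS, 12.61 in shWDR5 PBS and 12.52 in shKAT2B PBS. Under glucagon it stood at 12.86 and 12.75 in shNS, 12.92 and 12.81 in shWDR5 and 12.79 and 12.65 in shKAT2B. All 6 glucagon libraries lay above the 4 PBS libraries. Slc38a2 separated by hairpin instead of treatment. It stood at 12.57 and 12.43 in shNS PBS, 12.62 and 12.55 in shNS glucagon, 12.71 in shWDR5 PBS, and 12.80 and 12.59 in shWDR5 glucagon. The shKAT2B arm lay below all of these, at 12.09 with PBS and 12.21 and 11.97 with glucagon. Slc38a1 ran lowest in shNS, at 8.61 and 8.79 with PBS and 8.65 and 8.96 with glucagon. It stood at 8.88, 9.19 and 9.21 in the shWDR5 libraries and at 9.20, 9.03 and 9.47 in the shKAT2B libraries, so both hairpin arms lay above shNS within each treatment.

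Slc38a3, the system N gene, varied most with the library set. It stood at 10.18, 10.31, 10.10 and 9.70 in the set of 4 (library A of shNS PBS, then of glucagon-treated shNS, shWDR5 and shKAT2B). In the set of 6 it stood at 10.80, 10.73, 10.63, 10.57, 10.25 and 10.28 (shNS PBS, shNS glucagon, shWDR5 PBS, shWDR5 glucagon, shKAT2B PBS and shKAT2B glucagon). In each of the 4 groups with 2 libraries the A library was the lower. The set of 4 differed from the set of 6 by -0.53 ± 0.04 for Slc38a3, -0.21 for Slc38a1, 0.19 for Slc7a1 and 0.14 for Slc38a2. For Slc7a5 the difference was -0.13, for Slc7a2 -0.11, for Slc3a2 0.09 and for Slc38a4 0.08. These differences are a description without a test, because the set was read from these same libraries.

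**Figure D1:**
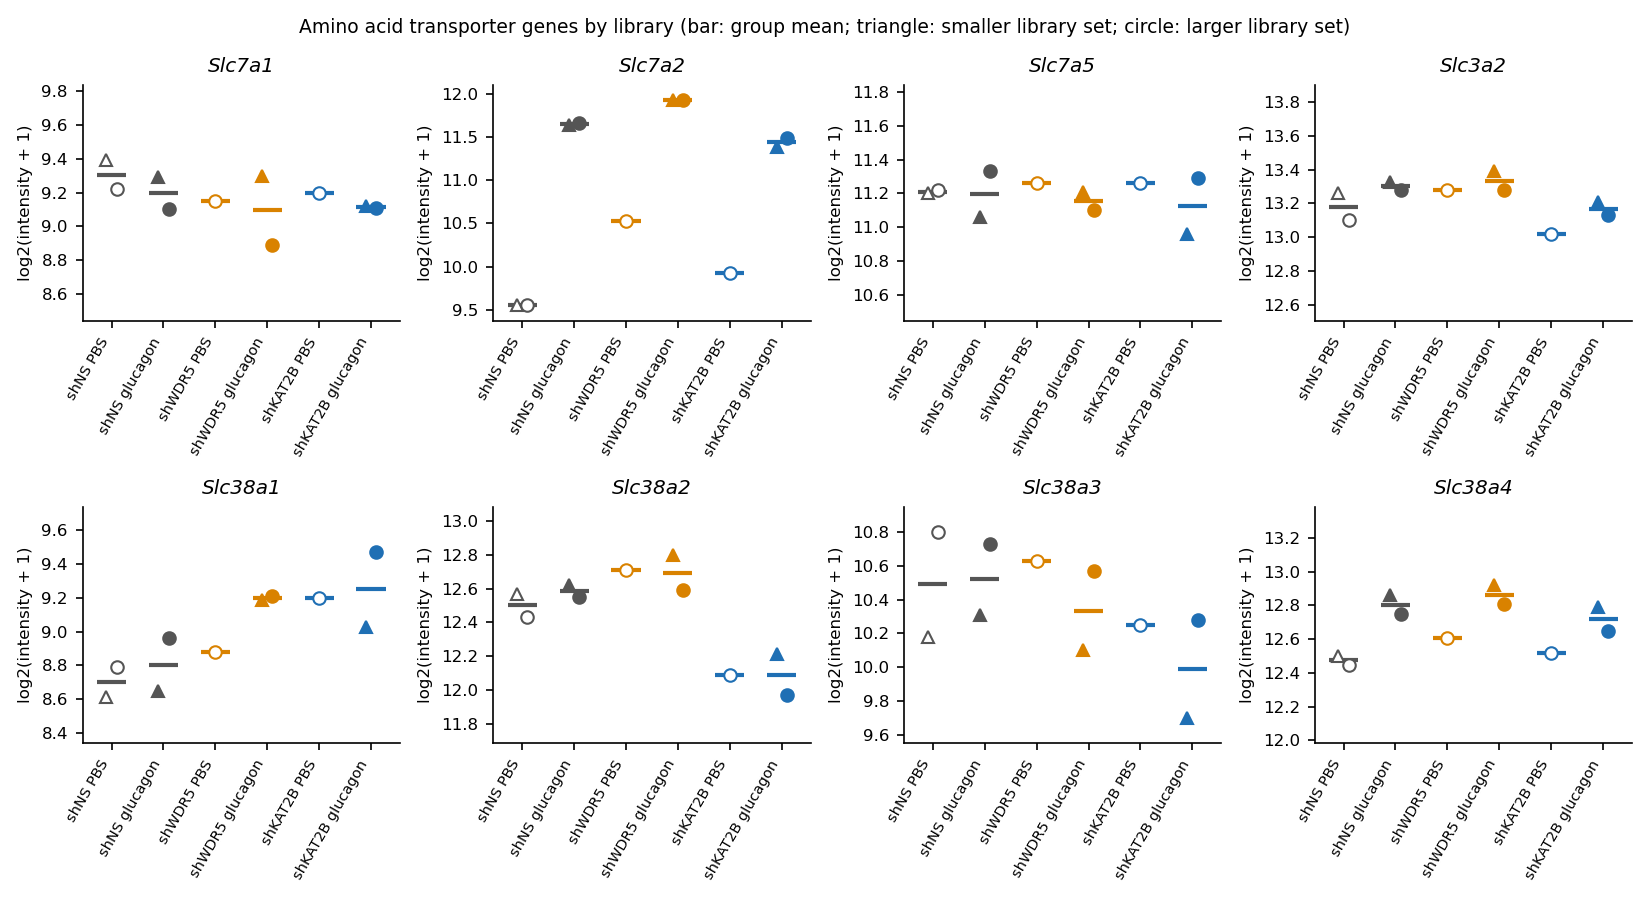
Level of each of the 8 transporter genes in the 10 libraries, as log2(intensity + 1), by hairpin arm and treatment (open symbols PBS, filled glucagon, colours the arm). Bars are group means, triangles the 4 libraries that stood apart and circles the other 6, and each panel has its own axis range. Slc7a2 rises from 9.55 to 11.66 in shNS, the 3 shKAT2B libraries of Slc38a2 lie below all others, and the triangles of Slc38a3 lie below the circles of the same group.

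The first comparison asks how glucagon changed transporter mRNA over the 3 arms. Slc7a2 rose by 1.73 ± 0.11, a 3.32-fold increase (6 against 4 libraries, limma with Benjamini-Hochberg adjustment over all genes tested, adjusted p = 0.000121). The system A gene Slc38a4 rose by 0.27 ± 0.05, or 1.21-fold (adjusted p = 0.0348). The other 6 genes were not called, a call being an adjusted p below 0.05, and ranged from -0.15 ± 0.17 for Slc38a3 to 0.15 ± 0.11 for Slc38a1 (adjusted p = 0.962 for both). Slc38a2, whose carrier activity in liver is known as hormone-responsive, stood at 0.03 ± 0.06. So 2 of 8 genes were called, against 0.923 percent of all genes tested, and the median of the 8 was 0.07 beside 0.015 for all genes. That count had been seen in these data before the genes were listed, and it is given as a description.

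The rise of Slc7a2 held without any single library, at 1.67 to 1.86, and in all 12 other settings. With the library set as a term it was 1.76 ± 0.10 (adjusted p = 1.33e-07) and Slc38a4 stood at 0.25 ± 0.04 (adjusted p = 0.000856), where 3.35 percent of all genes were called. With the library letter as a block the same 2 genes were called, against 2.5 percent of all genes. The call of Slc38a4 ended without any 1 library other than shKAT2B glucagon B, with adjusted p between 0.0523 and 0.199. It also ended with quantile normalization (adjusted p = 0.086), without a trend in the variance (0.0884) and in the shNS libraries alone (0.33, adjusted p = 0.894).

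The second comparison asks whether the glucagon effect was the same in each arm. Slc7a2 was 4.28-fold higher with glucagon in shNS, 2.64-fold in shWDR5 and 2.85-fold in shKAT2B. On the log2 scale these were 2.10 ± 0.08 (2 against 2 libraries, limma adjusted p = 0.00013), 1.40 ± 0.10 (2 against 1, adjusted p = 0.00635) and 1.51 ± 0.10 (2 against 1, adjusted p = 0.00381). In each arm it was the only gene of the 8 called, against 0.192, 0.0871 and 0.061 percent of all genes in shNS, shWDR5 and shKAT2B. The call in shWDR5 ended without shWDR5 glucagon A (adjusted p = 0.0758) or B (0.102). Slc38a4 stood at 0.33 ± 0.08, 0.25 ± 0.10 and 0.20 ± 0.10 in the 3 arms (adjusted p = 0.583, 1.0 and 0.996). With the letter as a block Slc38a4 was called too, at 0.33 in shNS, 0.31 in shWDR5 and 0.25 in shKAT2B (adjusted p = 0.00198, 0.00642 and 0.0106). That fit called 1.93, 14.9 and 26.3 percent of all genes in these arms. With the library set as a term, Slc38a4 was called in shNS (0.00198) and not in shWDR5 (0.20, adjusted p = 0.284) or shKAT2B (0.15, 0.766).

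The rise of Slc7a2 was smaller by 0.70 ± 0.12 in shWDR5 and by 0.59 ± 0.12 in shKAT2B than in shNS, but neither difference passed the test over all genes. The interaction terms of -0.70 and -0.59 had unadjusted p of 0.000749 and 0.00198 and adjusted p of 1.0 and 0.999. No gene on the array passed in either interaction (0.0 percent of 11480 genes with shWDR5 and 0.0 percent with shKAT2B, limma), while 20 and 36 genes had an unadjusted p under 0.05. Without any effect a share of 0.05 of the genes would be expected there, and both counts lie far below it. The test was thus strict in this fit, and its lack of calls does not show that the arms respond alike. With the letter as a block the terms were -0.71 and -0.60 (adjusted p = 0.00525 and 0.00546), where 4.75 percent of all genes passed for shWDR5 and 12.1 percent for shKAT2B. With the library set as a term they were -0.68 and -0.57 (adjusted p = 0.235 and 0.146). Differences between single libraries of the same set gave 2.09 and 2.11 in shNS, 1.40 in shWDR5 and 1.56 in shKAT2B.

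Read by treatment, Slc7a2 in shWDR5 differed from shNS by 0.98 ± 0.10 with PBS (1 against 2 libraries, limma adjusted p = 0.104) and by 0.28 ± 0.08 with glucagon (2 against 2, 0.192). In shKAT2B the differences were 0.38 ± 0.10 with PBS (0.157) and -0.21 ± 0.08 with glucagon (0.254). None of these 4 passed, and all 4 passed with the library set as a term. In that fit they were 0.96 with PBS (adjusted p = 0.000113, 8.82 percent of all genes called) and 0.28 with glucagon (0.00677, 23.7 percent) in shWDR5. In shKAT2B they were 0.36 (0.00783, 18.4 percent) and -0.21 (0.0243, 27.2 percent). With the letter as a block the PBS differences were 0.99 in shWDR5 (1.3e-05, 30.6 percent) and 0.39 in shKAT2B (0.0023, 37.1 percent). So in shKAT2B the PBS library lay above shNS and the glucagon libraries below it.

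The block treats shWDR5 PBS A and shKAT2B PBS A as partners of the other A libraries, while both lay with the B libraries in the split described above. The interaction values of Slc38a3, the gene that differed most between the sets, moved with that choice. Under the block they were -0.59 and -0.55 (adjusted p = 0.0209 and 0.0154), and with the library set as a term -0.06 and -0.03 (adjusted p = 1.0 for both). Under the block Slc38a3 was also called with glucagon in shWDR5 (-0.56, adjusted p = 0.00308) and shKAT2B (-0.52, 0.00277), where single libraries of the set of 6 differed by -0.06 and 0.03. Slc3a2 was called in shKAT2B (0.20, 0.0222). Without either term the interactions of Slc38a3 were -0.32 ± 0.46 and -0.29 ± 0.46 (adjusted p = 1.0 and 0.999).

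**Figure D2:**
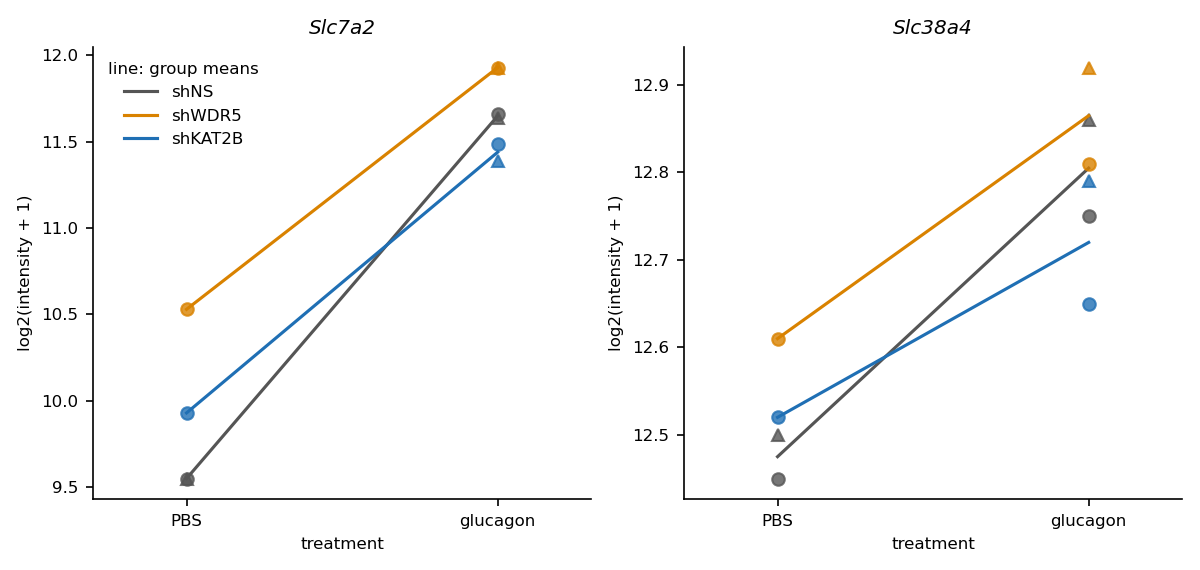
Slc7a2 and Slc38a4 with PBS and with glucagon in each arm, as log2(intensity + 1), with a line through the group means (triangles are the 4 libraries that stood apart, circles the other 6, and the axis ranges differ). For Slc7a2 the lines climb by 2.10 in shNS, 1.40 in shWDR5 and 1.51 in shKAT2B, and start from 9.55, 10.53 and 9.93.

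The third comparison sets shWDR5 against shNS over both treatments. Slc7a2 rose by 0.57 ± 0.13, or 1.49-fold (3 against 4 libraries, adjusted p = 0.0282), and was the only gene of the 8 called. This value joins differences of 0.98 with PBS and 0.28 with glucagon. The other 7 ranged from -0.12 ± 0.10 for Slc7a1 to 0.32 ± 0.13 for Slc38a1 (adjusted p = 0.516 and 0.151). With 1 of 8 called, beside 10.9 percent of all genes, the 8 stood near the background, and their median was 0.08 beside -0.012. The call of Slc7a2 ended without shWDR5 PBS A (adjusted p = 0.189), shNS PBS B (0.0629), shWDR5 glucagon B (0.0626) or shNS PBS A (0.0548), and in the glucagon libraries alone (0.28, 0.295).

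With the library set as a term 5 of the 8 genes were called with shWDR5, against 36.8 percent of all genes. Of these 4 rose, Slc7a2 by 0.55, Slc38a1 by 0.27, Slc38a2 by 0.18 and Slc38a4 by 0.11, and Slc38a3 fell by 0.16 (adjusted p = 0.00181, 0.0237, 0.00846, 0.0456 and 0.0234). With the letter as a block Slc7a2 (0.56) and Slc38a1 (0.36, adjusted p = 0.0143) were called, against 26.7 percent of all genes.

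Markers of cell types were read in the same comparison, beside 10.9 percent of all genes called, or 36.8 percent with the library set as a term. The Kupffer cell and leukocyte markers had a median of 0.26, with 14 of 14 positive and 0 called. With the library set the median was lower, at 0.16, with 13 of 14 positive and 6 called. Their sum was 14567 in shWDR5 PBS and 10233 to 14937 in shWDR5 glucagon, against 8222 to 12440 and 8066 to 13638 in shNS. The endothelial markers had a median of 0.27 with 12 of 12 positive and 0 called, or a median of 0.15 and 2 called with the library set. Of 3 cholangiocyte markers 2 fell, Krt19 by 0.80 and Krt7 by 0.46. Of 11 hepatocyte markers 2 fell, Alb by 0.30 and Trf by 0.24, and with the library set 5 fell and 1 rose. Of 9 stellate cell and fibroblast markers Tagln fell by 0.32, and with the library set 3 others rose. Without shWDR5 PBS the calls of Alb, Tagln, Krt7 and Krt19 were lost (adjusted p = 0.0803 to 0.234), and 4 to 7 of the 10 left-out libraries ended each of them, while 0 of 10 ended that of Trf. The part of these shifts in the change of Slc7a2 was not tested.

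The fourth comparison sets shKAT2B against shNS. The system A genes moved in opposite directions. Slc38a2 fell by 0.46 ± 0.08 on the log2 scale, to a level 1.37-fold lower (3 against 4 libraries, adjusted p = 0.00446), and Slc38a1 rose by 0.45 ± 0.13, or 1.37-fold (adjusted p = 0.0386). Slc38a4 stood at -0.03 ± 0.06 (adjusted p = 0.761). Of the others, Slc38a3 stood at -0.40 ± 0.21 (adjusted p = 0.237) and Slc3a2 at -0.14 ± 0.05 (0.106). Slc7a1 (-0.09 ± 0.10), Slc7a2 (0.05 ± 0.13) and Slc7a5 (-0.02 ± 0.09) were not called. So 2 of 8 were called, against 15.6 percent of all genes, and the median was -0.06 beside 0.009 for all genes.

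The fall of Slc38a2 held without any single library, at -0.51 to -0.39. Between single libraries of the same set it was -0.34 with PBS and -0.41 and -0.58 with glucagon. The rise of Slc38a1 was 0.41 with PBS and 0.38 and 0.51 with glucagon by the same reading. Its call held without shNS glucagon B or shKAT2B glucagon A, and ended without any other 1 library, with adjusted p of 0.0509 to 0.222, the highest without shKAT2B PBS A. It also ended with quantile normalization (0.0545), with median-centred libraries (0.057) and with the mean of its probe sets (0.24, adjusted p = 0.0911). Under median centring Slc3a2 gained a call (-0.17, adjusted p = 0.0332). The other probe set of Slc38a1 had a mean of 6.18, below the lowest mean kept of 7.13, and there the shKAT2B libraries (6.15, 6.11 and 6.11) overlapped the shNS libraries (6.03 to 6.19).

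With the library set as a term 4 of the 8 genes were called with shKAT2B, against 41.5 percent of all genes, a share near the background. Slc38a3, which transports glutamine, fell by 0.52 ± 0.05 in that fit (adjusted p = 4.88e-06), and by 0.50 in the set of 6 alone (7.45e-05), where 37.2 percent of all genes were called. Single libraries of the same set differed by -0.55 with PBS and by -0.61 and -0.45 with glucagon. Slc3a2 fell by 0.12 (adjusted p = 0.0127), while Slc38a2 stood at -0.43 and Slc38a1 at 0.41. With the letter as a block 3 genes were called, Slc38a1 at 0.50, Slc38a2 at -0.49 and Slc3a2 at -0.16 (adjusted p = 0.0104), against 29.6 percent of all genes, and Slc38a3 stood at -0.31 (0.072). With only the glucagon libraries, 2 against 2, none of the 8 genes was called with either hairpin. That setting called few genes at all, 0.00871 percent with shWDR5 and 0.418 percent with shKAT2B.

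Hepatocyte markers moved with the same arm. Their summed intensity was 54209 in shKAT2B PBS and 56185 to 57858 in shKAT2B glucagon, against 62985 to 67959 in shNS PBS and 68623 to 72004 in shNS glucagon. Of 11 tested, 5 were called lower (median -0.42), beside the 15.6 percent of all genes called, and 10 with the library set as a term, beside 41.5 percent. The Kupffer cell and leukocyte markers had a median of 0.47 with 14 of 14 positive, or a lower median of 0.30 with 13 of 14 positive with the library set. Of these 0 were called, or 9 with the library set, and their sum was 16249 in shKAT2B PBS and 9391 to 17506 in shKAT2B glucagon. The endothelial markers had a median of 0.33 with 12 of 12 positive and 1 called (Eng), or a median of 0.21 and 7 called with the library set. Of 9 stellate cell and fibroblast markers Tagln was called lower, and with the library set 5 others were called higher. Of 3 cholangiocyte markers Krt7 was called lower. Without shKAT2B PBS the hepatocyte marker calls of Cps1 (adjusted p = 0.13), Fgb (0.072) and Hnf4a (0.0546) were lost, while those of Ttr and Serpina1c held. The calls of Eng (0.152) and Krt7 (0.157) were lost as well. In RNA of whole cultures fewer cells of a type and less RNA per cell cannot be told apart, and the part of these shifts in the values of Slc38a1, Slc38a2 and Slc38a3 was not tested.

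The 2 hairpins were also set against each other, a comparison added after the data had been seen. In shKAT2B relative to shWDR5, Slc38a2 was lower by 0.61 ± 0.08, or 1.53-fold (3 against 3 libraries, change of -0.61, adjusted p = 0.00103). Slc7a2 stood at -0.53 ± 0.14 (adjusted p = 0.0273) and Slc3a2 at -0.20 ± 0.06 (0.032), both called. The 3 of 8 called, all lower in shKAT2B, stand beside 22.7 percent of all genes, and the median was -0.16 beside 0.02. The difference of Slc38a2 held without any single library. That of Slc7a2 ended without shWDR5 PBS A (0.132), shKAT2B glucagon A (0.0771) or shKAT2B glucagon B (0.0816). That of Slc3a2 ended without shWDR5 PBS A (0.144), shKAT2B PBS A (0.13), shKAT2B glucagon B (0.102), shWDR5 glucagon A (0.0874) or shNS glucagon A (0.0513), with quantile normalization (0.0548) and without a trend (0.0711). When the library set was a term, Slc38a3 (-0.36) and Slc38a4 (-0.13) were called as well, 5 of 8 against 50.4 percent of all genes. The same 5 were called with the letter as a block, against 36.1 percent.

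**Figure D3:**
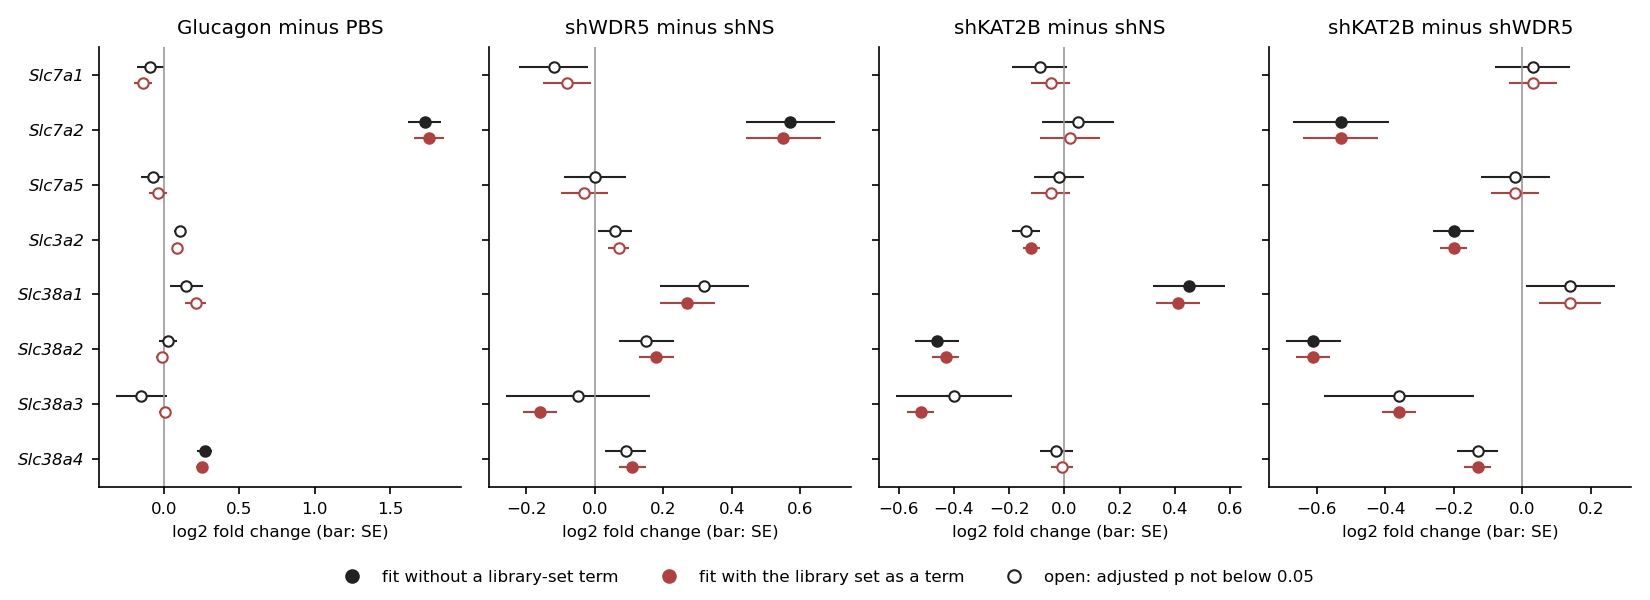
Log2 fold change of each gene with its standard error in 4 comparisons, without (black) and with (red) the library set as a term of the fit; filled points have an adjusted p below 0.05 and each panel has its own axis range. Slc7a2 stands at 1.73 with glucagon and 0.57 with shWDR5, Slc38a2 at -0.46 and Slc38a1 at 0.45 with shKAT2B, and the bars of Slc38a3 shorten when the set is a term.

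Slc38a1, Slc38a2 and Slc38a4 are consecutive protein-coding genes of mouse chromosome 15 in RefSeq (GRCm38.p6), so the gene that fell with shKAT2B (-0.46) lies between one that rose (0.45) and one that was not called (-0.03). RefSeq windows of the 250 bases before a start site were matched for 4 of the 8 genes (Slc7a1, Slc3a2, Slc38a2 and Slc38a4). Slc7a2, Slc7a5, Slc38a1 and Slc38a3 had no entry. Windows were searched on both strands for the full cyclic AMP response element TGACGTCA, its shorter core TGACG, which the full element contains, and the amino acid response element core TGATGNAA. These were found in 1.55, 17.8 and 3.45 percent of all 32851 windows. The full element and TGATGNAA were in none of the windows of the 4 genes (0 of 4), and sequence outside these 250 bases was not searched. Because Slc7a1 has 2 listed starts and Slc38a4 has 3, these genes have 7 windows in all. The shorter core was in 3 of the 7, at 184 bases before 1 start of Slc7a1, 27 before that of Slc38a2 and 110 before 1 start of Slc38a4. The windows of Slc38a4, which rose with glucagon, and of its neighbour Slc38a2, which was not called with glucagon and fell with shKAT2B, both held the shorter core and are printed 5′ to 3′ with it in capitals. They were chosen after their values were seen. Both lie on the minus strand, at chr15:96699729-96699978 for Slc38a2 and chr15:97031214-97031463 for Slc38a4.
Slc38a2: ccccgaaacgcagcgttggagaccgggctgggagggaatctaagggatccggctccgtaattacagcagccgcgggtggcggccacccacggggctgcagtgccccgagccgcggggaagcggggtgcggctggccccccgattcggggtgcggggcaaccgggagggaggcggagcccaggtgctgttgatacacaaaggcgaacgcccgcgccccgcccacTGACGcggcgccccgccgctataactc
Slc38a4: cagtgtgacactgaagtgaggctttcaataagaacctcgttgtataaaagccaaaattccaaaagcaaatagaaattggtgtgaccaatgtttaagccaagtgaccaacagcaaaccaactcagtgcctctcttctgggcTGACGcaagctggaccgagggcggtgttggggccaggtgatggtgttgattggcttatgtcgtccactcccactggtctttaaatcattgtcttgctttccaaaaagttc

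Of 20 further SLC7, SLC3 and SLC38 genes listed, 16 were on the array and 10 passed the filter. With glucagon 0 of 10 were called (median 0.02), also with the library set as a term, beside 0.923 and 3.35 percent of all genes. With each hairpin 2 of 10 were called, beside 10.9 percent of all genes with shWDR5 and 15.6 percent with shKAT2B. In the fit with the library set 6 and 7 of 10 were called, beside 36.8 and 41.5 percent. With shWDR5, Slc38a7, a lysosomal glutamine carrier, fell by 0.75 ± 0.16 (adjusted p = 0.0197) and Slc7a4, an orphan relative of the CAT genes, by 0.50 ± 0.07 (0.00529). Slc7a4 lay at 7.06 to 7.10 in shWDR5 and 7.40 to 7.72 in shNS, near the lowest mean kept of 7.13. Slc38a7 lay at 9.28 to 9.84 in shWDR5 and 10.10 to 10.50 in shNS. Its call ended without shWDR5 PBS A (0.105), shWDR5 glucagon B (0.0652) or shNS glucagon A (0.0727), while that of Slc7a4 held without each library.

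With shKAT2B, Slc7a11, the cystine and glutamate exchanger that also pairs with the heavy chain of Slc3a2, fell by 0.85 ± 0.19 (adjusted p = 0.0163). It lay at 10.49 to 11.23 in shKAT2B and 11.58 to 12.05 in shNS. Slc38a9, a lysosomal arginine sensor, rose by 0.24 ± 0.05 (adjusted p = 0.0143). The call of Slc7a11 ended without shKAT2B PBS A (0.0718). That of Slc38a9 ended without shKAT2B PBS A (0.0978), shNS glucagon A (0.0544) or shKAT2B glucagon B (0.0508), and with the mean of its probe sets (0.157). In the fit with the library set Slc7a11 stood at -0.95 (adjusted p = 2.39e-07) and Slc38a9 at 0.25.

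Of 18 transporter genes of other amino acid families, 16 were on the array and 12 passed the filter. With glucagon 0 of 12 were called, beside 0.923 percent of all genes. The highest was Slc16a10, an aromatic amino acid transporter, at 0.78 ± 0.18 (adjusted p = 0.114). When the library set was a term, Slc16a10 (0.90, adjusted p = 0.000176) and Slc36a4 (0.24, 0.0129) were called, and both are named after their values were seen. They stand beside 3.35 percent of all genes called in that fit. With shWDR5 3 of 12 were called and with shKAT2B 4 of 12, beside 10.9 and 15.6 percent of all genes. In the fit with the library set these counts were 7 and 5, beside 36.8 and 41.5 percent. With shWDR5 the glutamine carrier gene Slc1a5 rose by 0.64 ± 0.12 (0.0107). The betaine and GABA transporter genes Slc6a12 and Slc6a13 fell by 0.46 ± 0.08 (0.0108) and 0.64 ± 0.10 (0.00549). Without shWDR5 PBS A the calls of Slc1a5 (0.0694) and Slc6a12 (0.0802) ended.

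With shKAT2B the neutral amino acid exchanger gene Slc1a4 fell by 0.85 ± 0.08 (adjusted p = 0.00039), from 9.78 to 10.01 in shNS to 8.92 to 9.12, and its call held without each library. Slc6a9, a glycine transporter gene, fell by 0.50 ± 0.10 (0.0112). The proton-coupled carrier gene Slc36a1 rose by 0.51 ± 0.09 (0.00683) and Slc43a2, which carries large neutral amino acids, by 0.45 ± 0.08 (0.00745). Without shKAT2B PBS A the calls of Slc6a9 (0.0593) and Slc43a2 (0.0753) ended.

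Of 14 genes of arginine and glutamine metabolism, 11 were on the array and 7 passed the filter. Called were 1 of 7 with glucagon, 1 with shWDR5 and 3 with shKAT2B, beside 0.923, 10.9 and 15.6 percent of all genes. With the library set as a term 2, 3 and 3 were called, beside 3.35, 36.8 and 41.5 percent. Glucagon raised Odc1, which makes putrescine from the ornithine that CAT transporters carry, by 0.51 ± 0.07 (adjusted p = 0.00958). It lay at 11.33 to 11.63 in the glucagon libraries, above every PBS library, and the call ended without shWDR5 PBS A (0.0712) or shKAT2B PBS A (0.081) and in the shNS libraries alone (0.45). With shKAT2B, Cps1, the entry enzyme of the urea cycle, fell by 0.64 ± 0.16 (0.0281), and Glud1, glutamate dehydrogenase, by 0.19 ± 0.04 (0.0132). Cps1 lay at 6.76 to 7.44 in shKAT2B and 7.30 to 8.26 in shNS, near the lowest mean kept of 7.13. It was also among the 5 hepatocyte markers counted above. Oat, ornithine aminotransferase, rose with shWDR5 (0.28 ± 0.08, adjusted p = 0.0498) and with shKAT2B (0.31 ± 0.08, 0.0255), against the same shNS libraries. These 4 calls were fragile. That of Oat with shWDR5 held without shKAT2B glucagon A and ended without any other 1 library (0.0656 to 0.166). It also ended with quantile normalization (0.0526), median centring (0.063), no filter (0.0679) and no trend (0.05).
That of Oat with shKAT2B ended without shKAT2B PBS A (0.177), shKAT2B glucagon B (0.0992), shNS glucagon A (0.093) or shNS PBS B (0.0592). That of Cps1 ended without shNS PBS B (0.0709), shNS glucagon B (0.0655), shWDR5 PBS A (0.0518) or any 1 shKAT2B library (0.0626 to 0.13). That of Glud1 ended without shKAT2B PBS A (0.128) and without a trend (0.051).

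Genes of the amino acid response, which the factor ATF4 activates when amino acids run short, ran mostly lower with shKAT2B. Of 15 listed, 14 passed the filter. With shKAT2B 4 fell, 1 rose, 12 of 14 had a negative fold change and the median was -0.35 beside 0.009 for all genes. The 5 of 14 called stand beside 15.6 percent of all genes. Besides Slc7a11, Chac1, a glutathione-degrading enzyme, fell by 0.65 ± 0.14 (adjusted p = 0.0135), Psat1 of serine synthesis by 0.34 ± 0.07 (0.0125) and asparagine synthetase Asns by 0.32 ± 0.08 (0.0219). Sesn2, a leucine sensor of the mTORC1 pathway, rose by 0.60 ± 0.12 (0.00936). Asns lay outside the naming rule and was named after its value was seen. When the library set was a term, 11 fell and 2 rose, in a fit that called 41.5 percent of all genes. Without shKAT2B PBS A the calls of Chac1 (0.0892), Asns (0.167) and Sesn2 (0.0609) ended, and that of Asns also without shNS glucagon A (0.0674) or shKAT2B glucagon B (0.0822).

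With glucagon 0 of the 14 response genes were called (median -0.08), beside 0.923 percent of all genes. When the library set was a term, Atf3 (0.56) and Cebpb (0.46) were called, 2 of 14 beside 3.35 percent, and are named after their values were seen. With shWDR5 2 rose, beside 10.9 percent of all genes, or 3 with the library set, beside 36.8 percent. The 2 were Ddit4, by 0.45 ± 0.10 (adjusted p = 0.0269), and Sesn2, by 0.51 ± 0.12 (0.0275). The call of Ddit4 ended without shNS glucagon B (0.0671), shKAT2B PBS A (0.051) or any 1 shWDR5 library (0.0508 to 0.176). That of Sesn2 held without shNS PBS A, shWDR5 glucagon B, shKAT2B glucagon A or shKAT2B glucagon B and ended without any other 1 library (0.0509 to 0.13). With only the glucagon libraries none of the listed genes named for a hairpin was called. Slc38a2 belongs to the same starvation response, and it fell with shKAT2B as Asns, Psat1, Chac1 and Slc7a11 did. In the same comparison Sesn2 rose by 0.60, and Ddit4 stood at 0.33 without a call. Whether these changes share a cause was not tested. Windows were matched for 14 of the 15 response genes, 15 windows in all. These are not exactly the 14 genes tested, as windows were matched without regard to the filter. TGATGNAA was in 6 of the 14 genes with a window, TGACG in 7 and TGACGTCA in 0, beside 3.45, 17.8 and 1.55 percent of all windows. Of the called genes Slc7a11 had the largest fall, and its window held TGATGNAA at 66 bases before the start and, on the opposite strand, at 47. It is printed with both matches in capitals, at chr3:50443614-50443863 on the minus strand (GRCm38.p6), and was chosen after its values were seen.
Slc7a11: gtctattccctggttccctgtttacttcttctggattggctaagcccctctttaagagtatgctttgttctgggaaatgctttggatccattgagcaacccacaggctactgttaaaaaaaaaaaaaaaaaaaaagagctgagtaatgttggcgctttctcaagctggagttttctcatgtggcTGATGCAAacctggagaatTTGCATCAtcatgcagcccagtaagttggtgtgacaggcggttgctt

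**Figure D4:**
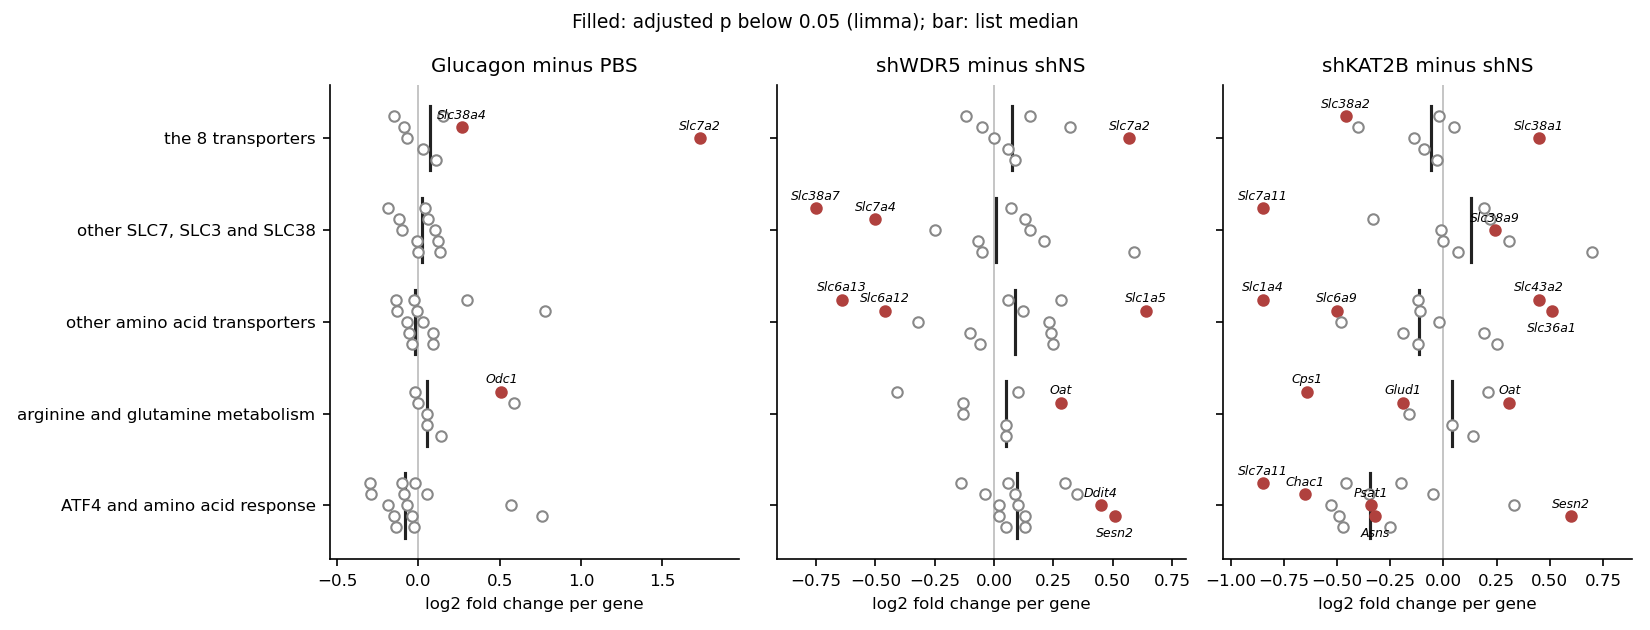
Log2 fold change of each tested gene of the 8 transporters and of the 4 other lists in 3 comparisons, with the list median as a bar; filled and named points have an adjusted p below 0.05, vertical offsets only separate points, and Slc7a11 is in 2 lists. With shKAT2B the amino acid response genes have a median of -0.35 with 4 genes lower and 1 higher, while with glucagon 0 of them were called in the fit without a library-set term.

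The 8 genes did not move as one block across the 10 libraries. The closest pair was Slc7a2 and Slc38a4 (Pearson r = 0.93), which share the separation of glucagon from PBS libraries, followed by Slc3a2 and Slc38a2 (0.83). The lowest value was that of Slc7a1 and Slc38a1 (-0.56). Among all genes tested, those whose pattern was nearest to Slc7a2 over the 10 libraries were Prrg4 (r = 0.985), Ppargc1a (0.98) and Usp2 (0.98). Ppargc1a encodes a coactivator of fasting genes, and it was also among the 3 nearest to Slc38a4, after Irf2bp2 (0.972), with Ppargc1a and Rasgef1b at 0.945. For Slc38a2 they were Hnrnph2 (0.989), Wwtr1 and Pus1 (both 0.986). For Slc38a3 they were Apoa1 (0.982), Serpina1d (0.979) and Fth1 (0.977), of which the first encodes the main protein of high-density lipoprotein.

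For the remaining genes the nearest patterns were Emp3 (0.962), C130074G19Rik (0.943) and Rpp25 (0.926) for Slc38a1. They were Reps1 (0.969), Bach1 (0.959) and D16Ertd472e (0.955) for Slc3a2. Slc7a1 ran closest to Paxx (0.962), Ccdc181 (0.928) and Snap29 (0.925), and Slc7a5 to Rpusd3 (0.954), Lsm10 (0.918) and Eef1e1 (0.904). These values describe 10 libraries that share arms, treatments and the library set, and each is the highest of many genes, so they carry no test.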

How the data were processed

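RNA was measured on Affymetrix Mouse Gene arrays, and the deposited table holds intensity on a linear scale (4.47 to 22694) for 26913 probe sets. The authors used Affymetrix Expression Console 1.1.1, per the submitters' processing notes. How they normalized the arrays is not stated in the labels or notes. Medians of the libraries ran from 282.1 to 298.2. Precision is limited by the number of libraries, as arrays carry no read depth. Of the probe sets 17873 carried 1 gene symbol, 1128 several and 7912 none in the platform annotation, which can be old; 17815 matched the RefSeq gene table.

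Intensities were put on the scale log2(value + 1), and genes in the lowest 30 percent of mean values were dropped. limma 3.58.1 in R 4.3.3 (lmFit, eBayes with a trend) gave the shared glucagon and hairpin effects from an additive model and the effects within arms from a model of the 6 groups. Groups with 1 library were assumed to vary like the others. Tests were two-sided, adjusted by Benjamini-Hochberg over the 11480 genes tested, and errors after ± are standard errors. The procedure was tested on simulated data. The simulated noise was independent between genes and libraries and held no library set, so that test does not cover calls under such a split. Python 3.11.15 with pandas 2.3.3 made the tables and matplotlib 3.10.9 the figures.

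The 8 genes and all lists were chosen with earlier results of these data known. Named are the 8 genes, the targets, called list members (at most 4 per list and comparison, by size) that did not overlap within an arm or treatment, and the 3 genes with the highest Pearson r to each of the 8. Marker genes and the genes said to be so were named after their values were seen. The letters A and B pair the 4 groups with 2 libraries, as judged from correlations of 0.72 to 0.84 between groups in the difference of A and B. The lone PBS libraries are labelled A, yet they grouped with B libraries. Other settings were quantile normalization, median centring, no filter and a filter of 50 percent, the mean of a gene's probe sets, no trend, no pseudocount or one of 16, the letter as a block, the library set as a term, the set of 6 alone, shNS or glucagon libraries alone, and leaving out each library. The comparison of the 2 hairpins and the differences within a library set were added after seeing the data. RefSeq protein sequences were not used here.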

Additional observations from a re-analysis of the deposited data

How the results depend on the processing

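Counts of called transporter genes were recomputed under each setting. With glucagon the main count was 2, and it was 1 with quantile normalization, without a trend and in shNS alone, and 1 to 2 without single libraries. With shWDR5 it was 1, with the replicate block 2, with the library set as a term 5, in glucagon libraries alone 0, and 0 to 1 without single libraries. With shKAT2B it was 2, with quantile normalization or the mean of probe sets 1, with the library set 4, in glucagon libraries alone 0, and 1 to 2 without single libraries. Between the hairpins it was 3, under the replicate block, with the library set and in the set of 6 alone 5 each, and 1 to 3 without single libraries. Within arms it was 1 each, under the replicate block 2 in shNS, 3 in shWDR5 and 4 in shKAT2B, with the library set 2 in shNS, and without single libraries 0 to 1 in shWDR5. The interactions had 0, and 2 each under the replicate block. Counts over all 11480 genes stand beside these. With glucagon 76 genes were called higher and 32 lower with quantile normalization, 75 and 26 without a trend, and 13 and 2 in shNS alone. With shKAT2B they were 890 and 1162 with quantile normalization, and 756 and 1024 with the mean of probe sets. Between the hairpins they were 2751 and 2445 in the set of 6 alone. The cause of the shifts in these counts was not tested. Of single-gene values of the 8 genes under other settings 0 reversed a call, 1319 kept direction and call, 42 lost the call, 27 gained it and 76 uncalled values changed sign. For targets, list and marker genes called in the main fit, 689 values kept the call and 119 lost it, and gains by other list genes are not in this count. The lone PBS libraries decide many calls, and 2 groups have no replicate.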
